A study of Homo sapiens with 2 samples.

Results

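The metalloproteases named MMP, ADAM and ADAMTS and their inhibitors, the TIMPs, were examined in a human cell line of triple-negative breast cancer, MDA-MB-231. Members were set by a rule on the symbol, and earlier results of these data were known when they were chosen. The rule required a protein-coding gene called MMP, ADAM, ADAMTS or TIMP followed by its number, with an array probe set naming no other gene. This gave 62 genes among the 16835 protein-coding genes that a probe set names alone, made up of 22 MMPs, 19 ADAMs, 18 ADAMTSs and 3 TIMPs, each read by 1 probe set. Of 66 protein-coding genes with such symbols in RefSeq, TIMP2 and MMP23B share their probe sets with other genes, ADAM7 and ADAMTS7 have none named for them in the annotation used, and these 4 were not analysed here.

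The study compared 2 derivatives of the line, both carrying a stably introduced lentiviral vector of the pLKO.1 type and both grown in high-glucose DMEM with 10% FBS. The control cells (genotype control) received the pLKO.1 vector, and the other cells (genotype SREBP1 KD) received pLKO.1-shSREBP, which encodes a short hairpin RNA against SREBP1. In the sample titles the control carries the label shNC and the other cells shSREBP1. Each was measured on 1 array, no label used here states the number of clones or cultures behind it, and 1 hairpin vector against SREBP1 is described. With 1 array per group there was no replicate spread and no test, so each difference below is the log2 signal of the array labelled SREBP1 knockdown minus that of the control array, described by its size.

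The targeted gene did not show the labelled loss. SREBF1, which encodes the lipogenic transcription factor SREBP1, read 5.13 log2 units in the control and 5.29 on the knockdown-labelled array, which differ by 0.15, and directions therefore refer to the labels of the arrays. A gene counted as detected when its higher value passed a floor of 3.21 log2 units. This is the 95th percentile of the mean signals of 350 olfactory receptor genes, of which 25 passed by their higher value. Over the 15697 genes above it, differences had a median of 0.012 and an SD of 0.19 log2 units, with 52.2% of genes higher, 41.2% lower and 6.62% equal to the last digit. All 6 markers of mesenchymal breast lines were above the floor, with mean signals of 8.48 and 8.60 log2 units on the control and knockdown arrays. Of other cell types' markers, 3 of 7 analysed fibroblast genes (means 3.21 and 3.18), 5 of 8 leukocyte genes (3.80 and 3.78), 3 of 5 endothelial genes (3.15 and 3.11) and 6 of 7 luminal genes (5.32 and 5.32) were above it. The means in brackets are over all analysed genes of each list, including those under the floor. The fibroblast genes DCN, LUM, FAP and PDGFRA, the leukocyte genes PTPRC, LYZ and MS4A1, the endothelial genes PECAM1 and TEK, and ESR1 lay under the floor on both arrays. The brightest genes of these other lists were the leukocyte gene CD68, at 8.64 and 8.85, and 2 luminal keratins. KRT8 read 8.61 and 8.49, and KRT18 8.65 and 8.93. Both arrays were of derivatives of this cultured line, so these values are signals of its cultures and do not show other cell types. Differences between cells within a culture were not tested. In bulk RNA, fewer expressing cells and less RNA per cell cannot be told apart.

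Most of these proteases are zinc enzymes made as inactive precursors, while some ADAMs lack the catalytic zinc site. MMPs degrade collagens and other matrix proteins, ADAMs are membrane-anchored and shed the outer parts of receptors and growth factor precursors, and ADAMTSs are secreted enzymes that cut proteoglycans, procollagens and other matrix proteins. TIMPs sit in the active site of the enzymes and block it, and in tumours the balance of both classes bears on invasion and on growth factor release.

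The lowest differences belonged to an inhibitor and to a proteoglycan-cleaving enzyme, TIMP3 and ADAMTS9, while the highest belonged to the secreted proteases MMP1 and MMP9. Of the 62 genes, 36 were above the floor, namely 11 of 22 MMPs, 10 of 19 ADAMs, 12 of 18 ADAMTSs and 3 of 3 TIMPs. Among these 36, 2 were at least 1.5-fold lower on the knockdown-labelled array, where 0.752% of all genes above the floor were, and 0 were at least 1.5-fold higher, where 0.382% of all genes were. At 1.3-fold, 5 were lower, against 2.94% of all genes, and 1 was higher, against 2.31%. Of the 36, 16 were higher, 16 lower and 4 equal, with a median of 0 and a mean of -0.080 log2 units, so the median was level while the mean was below 0.

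**Figure D1:**
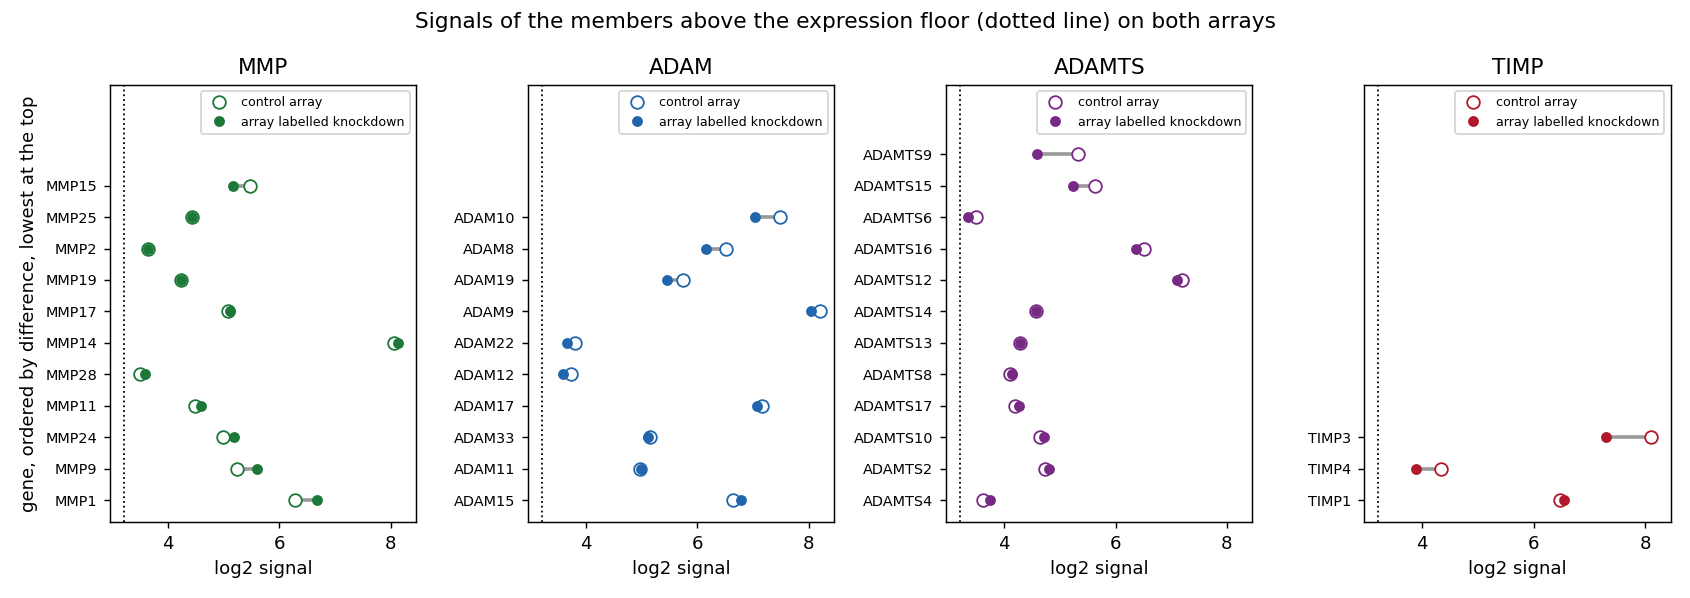
Log2 signal (horizontal axis) of each member above the expression floor (dotted line, 3.21) on the control array (open circles) and on the knockdown-labelled array (filled circles), 1 panel per family, 1 array per group. TIMP3, TIMP4, ADAMTS9, ADAMTS15 and ADAM10 have the widest gaps to the left, and MMP1 and MMP9 the widest to the right.

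The families differed in the sign of their members, a difference that was not tested. Over all genes above the floor, 52.2% were higher, 41.2% lower and 6.62% equal. The share of lower members was 9.09% in the MMPs, 80.0% in the ADAMs, 41.7% in the ADAMTSs and 66.7% in the 3 TIMPs. That of the ADAMTSs was thus near the share of all genes. In the MMPs 7 of 11 members above the floor were higher, 1 was lower and 3 were equal, and the median was 0.083 log2 units. Subtracting a loess curve of difference on signal brought it to 0.038, and dropping the floor to 0. The 3 equal MMPs are 27.3% of those above the floor, beside 6.62% of all genes. All 3 fell below 0 under the median or the loess subtraction, so the low share of lower MMPs depends on these ties. In the ADAMs 8 of 10 were lower and 2 higher, with a median of -0.14, or -0.093 with no floor. The ADAMTSs had 6 higher, 5 lower and 1 equal, and their median of 0.00059 turned to -0.012 once the median difference of all genes was subtracted. The TIMPs had 2 lower and 1 higher, with a median of -0.45. Spread within a family, as the SD over its members, was 0.19 for MMPs, 0.18 for ADAMs, 0.25 for ADAMTSs and 0.43 for TIMPs, beside 0.19 over all genes above the floor.

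**Figure D2:**
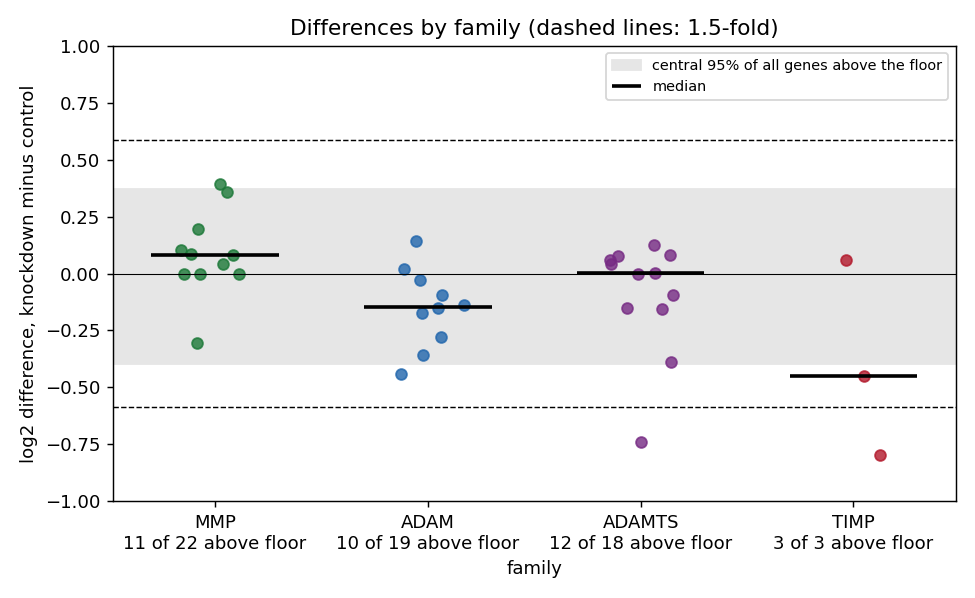
Log2 difference (knockdown minus control, vertical axis) of the members above the floor by family, each point a gene, with the family median as a bar, the central 95% of all genes above the floor (-0.40 to 0.37) shaded and 1.5-fold dashed. TIMP3 and ADAMTS9 lie below the lower dashed line, and no member lies above the upper one.

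Among the inhibitors, TIMP3 carried the widest difference of all 36 genes. TIMP3, which binds to the matrix and blocks ADAM17 and several ADAMTSs as well as MMPs, read 8.10 log2 units in the control and 7.30 on the knockdown-labelled array. The difference of -0.80 is 1.74-fold lower, and only 39 of the 15697 genes above the floor were lower still. The 500 genes nearest to it in mean signal had an SD of differences of 0.20. TIMP4, an inhibitor best known from heart and fat tissue, read 4.34 and 3.89, or 1.36-fold lower, which is under the 1.5-fold mark. TIMP1, a soluble inhibitor of most MMPs, read 6.48 and 6.54, or 1.04-fold higher, a difference below the SD of 0.21 of genes at its level. The inhibitors thus went apart, TIMP3 and TIMP4 being lower by more than the SD of genes at their level and TIMP1 slightly higher.

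Each of these inhibitor genes lies inside a synapsin gene in RefSeq, and the host genes were read by probe sets of their own. SYN3, the host of TIMP3, read 3.55 on both arrays, close to the floor. SYN2, the host of TIMP4, read 3.02 on both arrays, under the floor, where a lower level could not be seen. SYN1, the host of TIMP1, read 3.12 and 3.28.

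The upstream sequences of the inhibitors and of ADAM10, the ADAM with the widest difference, are printed as examples. They are the 250 bases before the annotated start from RefSeq (GRCh38.p14), read 5′ to 3′. GC boxes (GGGCGG or CCGCCC) and the E-box (CACGTG) are in capitals. Each sequence holds a GC box, as do 24 of the 37 members with a promoter, so the GC box does not set these genes apart. The sources used here do not give the build of the array's own probe sets.
TIMP1 (chrX:47582186-47582435, plus strand): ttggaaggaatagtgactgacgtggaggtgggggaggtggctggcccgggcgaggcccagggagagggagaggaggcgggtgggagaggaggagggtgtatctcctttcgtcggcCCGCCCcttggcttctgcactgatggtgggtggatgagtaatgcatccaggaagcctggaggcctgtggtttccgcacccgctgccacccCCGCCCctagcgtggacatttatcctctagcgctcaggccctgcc
TIMP3 (chr22:32801455-32801704, plus strand): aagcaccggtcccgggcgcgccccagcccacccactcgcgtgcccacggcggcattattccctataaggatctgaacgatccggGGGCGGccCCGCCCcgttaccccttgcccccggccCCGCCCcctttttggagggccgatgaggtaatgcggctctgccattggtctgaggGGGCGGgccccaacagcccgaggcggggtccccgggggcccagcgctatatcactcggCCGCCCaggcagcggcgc
TIMP4 (chr3:12158913-12159162, minus strand): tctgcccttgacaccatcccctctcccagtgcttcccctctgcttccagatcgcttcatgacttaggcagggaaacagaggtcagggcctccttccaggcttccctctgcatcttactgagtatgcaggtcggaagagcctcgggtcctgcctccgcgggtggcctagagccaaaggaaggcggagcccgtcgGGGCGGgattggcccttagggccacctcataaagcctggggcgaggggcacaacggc
ADAM10 (chr15:58749708-58749957, minus strand): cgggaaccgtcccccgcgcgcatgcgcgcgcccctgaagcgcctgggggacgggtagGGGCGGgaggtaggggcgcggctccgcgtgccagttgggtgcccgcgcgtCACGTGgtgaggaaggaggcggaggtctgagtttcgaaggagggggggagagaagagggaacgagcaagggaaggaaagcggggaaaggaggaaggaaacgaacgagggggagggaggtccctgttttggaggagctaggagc

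TIMP3 held 5 GC boxes in this window, TIMP1 held 2, and TIMP4 and ADAM10 held 1 each, with GC contents of 72.4%, 64.8%, 62.8% and 68.4%. GC content was computed for these genes alone, so it has no reference here. RefSeq promoters were found for 37 of the 62 members, and those of MMP1, MMP9, ADAMTS9 and ADAMTS15 were not among them. On either strand, the GC box was present in 24 of the 37 (64.9%), beside 42.6% of all 35116 promoters in the table. Those promoters were counted per entry and were not restricted to protein-coding genes. Members are all protein-coding and were counted once per gene, so the paired shares given here are not like for like. The TATA box TATAAA was present in 7 (18.9%, beside 10.7%), the AP-1 site TGAGTCA in 1, MMP7 (2.70%, beside 4.20%), and the E-box in 5, ADAM10 among them (13.5%, beside 6.34%). CACCCCAC, the core of the sterol response element of the LDL receptor gene, was present in 1, ADAMTS19 (2.70%, beside 2.43%), which was under the floor. These are matches of letters, each motif was searched separately with overlapping matches counted, and nothing about factor binding was measured.

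Among the ADAMTSs, the proteoglycan-cleaving enzymes held both low values. ADAMTS9, which cuts versican and aggrecan, read 5.33 log2 units in the control and 4.59 on the knockdown-labelled array, or 1.67-fold lower. Only 55 of all genes above the floor were lower, and none of the 500 genes nearest to it in signal. ADAMTS15, another enzyme of this group, read 5.63 and 5.24, or 1.31-fold lower. ADAMTS4, an aggrecanase, read 3.61 and 3.74, and ADAMTS8 read 4.11 and 4.15, so that 2 of the 4 members of the group above the floor were lower and 2 higher. ADAMTS8 and ADAMTS15 are next to each other on chromosome 11, and their differences of 0.041 and -0.39 had opposite signs. The antisense RNAs annotated across ADAMTS9, ADAMTS9-AS1 and ADAMTS9-AS2, were under the floor, the first at 2.24 and 2.21 and the second at 3.06 on both arrays.

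The other ADAMTSs stayed close to their control values. ADAMTS12, which cuts the cartilage protein COMP, read 7.20 and 7.10, and ADAMTS16 read 6.51 and 6.36. The procollagen-processing enzymes ADAMTS2 and ADAMTS14 read 4.73 and 4.81, and 4.57 on both arrays. ADAMTS6, the lowest of the remaining members with a difference of -0.16, read 3.50 and 3.34. ADAMTS10 and ADAMTS17, which act on fibrillin microfibrils, were higher by 0.078 and 0.060, and ADAMTS13, which cuts von Willebrand factor, differed by 0.0012. Under the floor lay ADAMTS1, ADAMTS3, ADAMTS5, ADAMTS18, ADAMTS19 and ADAMTS20, with signals from 2.04 to 2.93. ADAMTS1 and ADAMTS5 are a neighbouring pair on chromosome 21, and both were in this group.

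Among the ADAMs, members with a working zinc site were lower in 7 of the 8 cases above the floor, with a median of -0.16 log2 units. Of all genes above the floor, 41.2% were lower. ADAM10, the main sheddase of Notch receptors and cadherins, read 7.48 log2 units in the control and 7.04 on the knockdown-labelled array. This is 1.36-fold lower, a difference of -0.44, at the 2.4th percentile of the 500 genes nearest in signal. ADAM17, which releases TNF and most ligands of the EGF receptor, read 7.16 and 7.07, or 1.07-fold lower, at the 22.0th percentile of its neighbours in signal. These sheddases thus differed in size, with ADAM10 beyond the SD of 0.22 of genes at its level and ADAM17 within it.

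ADAM8, a protease first found in leukocytes and also made by breast tumours, read 6.52 and 6.16, or 1.28-fold lower. ADAM19, a sheddase of neuregulin, read 5.74 and 5.46, or 1.21-fold lower. ADAM9, a broadly expressed member on chromosome 8, read 8.21 and 8.03, or 1.13-fold lower. All 3 were lower, by decreasing amounts and none by 1.3-fold. ADAM12 read 3.72 and 3.59, ADAM33 5.15 and 5.12, and ADAM15, the catalytic member with the opposite sign, 6.63 and 6.78. Of the ADAMs that lack the zinc site and act in cell contact, ADAM22, a receptor of the neuronal ligand LGI1, read 3.81 and 3.66 and ADAM11 4.96 and 4.98. All 7 ADAMs made mainly in the testis, ADAM2, ADAM18, ADAM20, ADAM21, ADAM29, ADAM30 and ADAM32, were under the floor on both arrays, between 1.94 and 2.49 log2 units on the control array. ADAM23 and ADAM28 were under it as well, ADAM28 with 2.84 and 2.56.

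**Figure D3:**
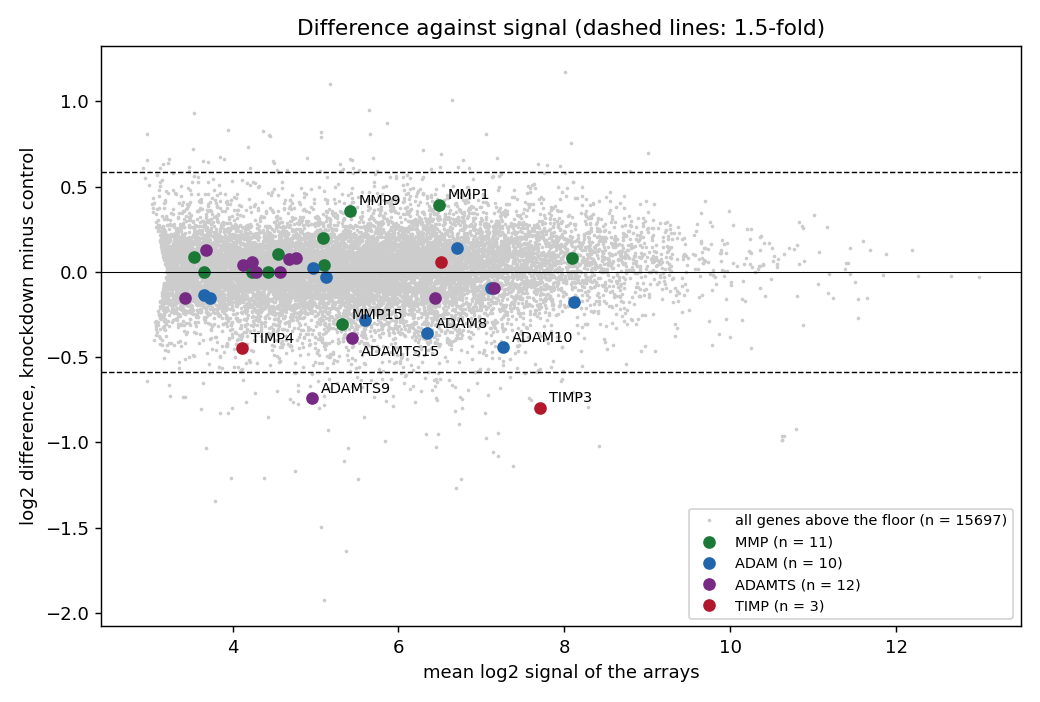
Log2 difference (knockdown minus control, vertical axis) against the mean log2 signal of the arrays for all 15697 genes above the floor (grey) and for the members by family (coloured), with 1.5-fold dashed. TIMP3 and ADAMTS9 lie at the lower edge of the cloud for their signal, whereas MMP1 and MMP9 lie inside it.

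Among the MMPs, the secreted collagenase and a gelatinase had the highest differences. MMP1, the interstitial collagenase, read 6.29 log2 units in the control and 6.68 on the knockdown-labelled array, or 1.31-fold higher. MMP9, gelatinase B, read 5.23 and 5.59, or 1.28-fold higher. They lay at the 98.4th and 97.4th percentiles of the 500 genes nearest in signal, and neither reached 1.5-fold. MMP2, gelatinase A, read 3.65 on both arrays, close to the floor and with the same pair of values as LINC01993. Whether the gelatinases went together can therefore not be read from these values.

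The membrane-type MMPs, which act at the cell surface, had 3 members higher, 1 lower and 1 equal. MMP14, which activates the MMP2 precursor and cuts collagen at the front of invading cells, read 8.05 and 8.14, or 1.06-fold higher. MMP15 was the member of this subgroup and of all MMPs with the lowest difference, at 5.48 and 5.17, or 1.24-fold lower. None of these subgroup members reached 1.3-fold. MMP24 read 4.99 and 5.19, MMP17 5.08 and 5.12, and MMP25 4.43 on both arrays. Of the rest, the stromelysin-like MMP11 read 4.49 and 4.59, MMP28 3.49 and 3.58, and MMP19 4.23 on both arrays. The matrilysins MMP7 and MMP26 were under the floor, and so were MMP16 and MMP21.

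MMP1 is 1 of 9 MMP genes that follow each other on chromosome 11 with no other protein-coding gene between them in RefSeq, and it was the member of the run that was detected. Its neighbours MMP10 and MMP3, both stromelysins, read 2.54 and 2.62, and 2.80 and 2.74. MMP7, MMP20, MMP27, MMP8, MMP12 and MMP13 also lay under the floor, between 2.06 and 2.56 log2 units on the knockdown-labelled array. Both of the other collagenases, MMP8 and MMP13, were in this set, so MMP1 was the collagenase above the floor.

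**Figure D4:**
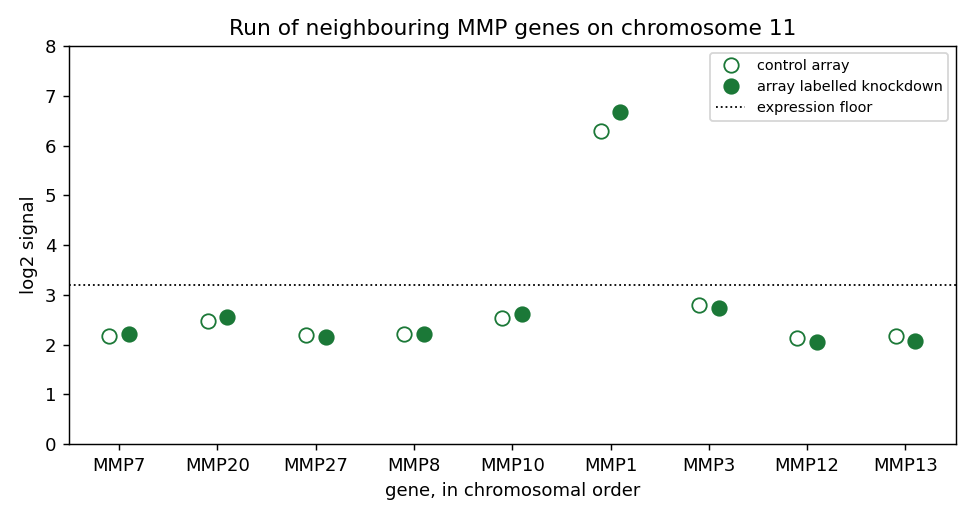
Log2 signal (vertical axis) on the control array (open circles) and on the knockdown-labelled array (filled circles) of the 9 neighbouring MMP genes of chromosome 11, in chromosomal order and not to scale. MMP1 stands at 6.29 and 6.68, and the other 8 lie under the floor of 3.21 (dotted line).

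The genes just under the floor were MMP21 (2.96 and 2.87), ADAMTS5 (2.93 and 2.91) and ADAM28 (2.84 and 2.56), and those just above it were ADAMTS6 (3.50 and 3.34), MMP28 (3.49 and 3.58) and MMP2 (3.65 and 3.65). Signals of different probe sets do not rank genes by transcript number, so levels are compared here only between the arrays. Values equal to the last digit on both arrays occurred in 4 of the 36 members above the floor (11.1%) and in 7 of the 26 under it. MMP2 also had the same pair of values as LINC01993, a gene on another probe set.

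Genes around the proteases were described from lists of their activators, partners, substrates and regulators, which were set up with earlier results of these data known. The counts of each list are to be read beside the shares of all genes above the floor, 52.2% higher, 41.2% lower and 6.62% equal. In the plasminogen system, which activates several MMP precursors, 4 of 8 genes above the floor were higher and 3 lower, near these shares. The median was 0.089 log2 units, or 0 with no floor. PLAUR, the urokinase receptor, read 7.84 and 8.37, or 1.44-fold higher, and PLAT, the tissue plasminogen activator, 8.19 and 7.75, or 1.36-fold lower. Proprotein convertases, which remove the prodomains of ADAMs and membrane-type MMPs, differed by -0.029 to 0.0062 over 3 genes. Other metzincins, such as the BMP1 and pappalysin enzymes, differed by -0.17 to 0.083 over 4 genes.

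Of 12 other inhibitors and surface partners above the floor, 8 were lower, where 41.2% of all genes were, and 4 higher. Their median was -0.076 log2 units. It was -0.13 after the loess subtraction and -0.047 with no floor. LRP1, the endocytic receptor that clears MMPs, ADAMTSs and TIMP3 from the cell surroundings, was the member beyond 1.5-fold. It read 6.11 and 5.48, or 1.55-fold lower. The genes that escort ADAM10 and ADAM17 to the cell surface had 4 of 9 lower, 3 higher and 2 equal, with a median of 0, or -0.096 with the floor 1 log2 unit higher. TSPAN15, a tetraspanin partner of ADAM10, read 5.74 and 5.32, or 1.34-fold lower, and no escort was higher by 1.3-fold.

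Among shed proteins, 9 of 16 genes were higher and 7 lower, near the shares of all genes (52.2% and 41.2%), for a median of 0.056. L1CAM, an adhesion molecule shed by ADAM10, read 6.43 and 5.96, or 1.39-fold lower. Among ADAMTS-like proteins and ADAMTS substrates, 4 of 13 were higher, 5 lower and 4 equal, with a median of 0. LTBP1, which stores TGF-beta in the matrix, read 4.14 and 3.71, or 1.35-fold lower. VCAN, the versican that ADAMTS9 cuts, was under the floor at 2.38 and 2.45 and is named after its values were seen. Transcription factors of protease genes had 6 of 13 higher, 6 lower and 1 equal, with a median of 0. FOSL1, an AP-1 subunit, read 7.35 and 7.82, or 1.39-fold higher, and RUNX2, a regulator of MMP13 in bone, 4.74 and 4.25, or 1.40-fold lower.

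**Figure D5:**
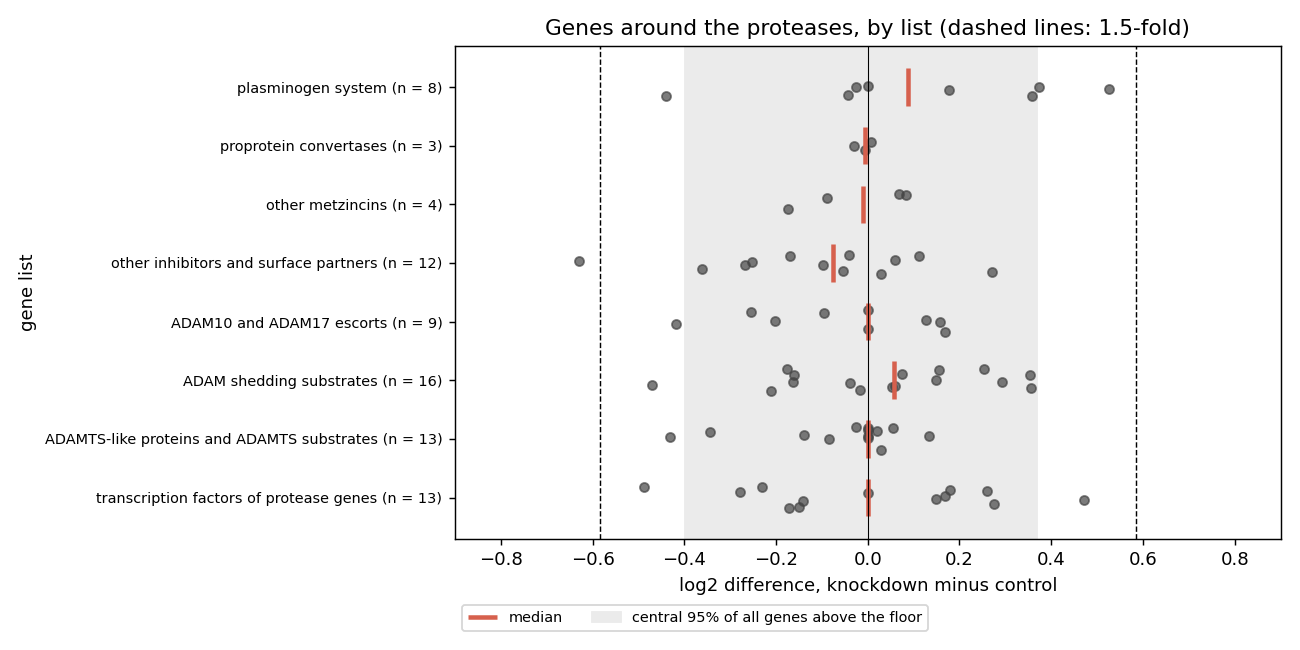
Log2 difference (knockdown minus control, horizontal axis) of the genes above the floor in each list around the proteases, each point a gene, with the list median as a bar, the central 95% of all genes above the floor shaded and 1.5-fold dashed. LRP1, at -0.63 among the inhibitors and surface partners, is the point beyond a dashed line.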

How the data were processed

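The deposited table holds log2 signals. The submitters' processing notes name RMA and Affymetrix Expression Console, while the authors' versions and build were not given in the sources used here. RNA input was 250 ng, per the labels' protocols. The WT PLUS kit was used for labelling. Of 70523 probe sets, 23781 named 1 gene, 1543 several (left out) and 45199 were unnamed here. Symbols and gene types were updated through RefSeq (GRCh38.p14), and a gene with more than 1 probe set was read from its brightest. The number of arrays, 1 per group, limits the precision, and no test was run.

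Members and lists were chosen with earlier results of these data known. Named genes were any member, SREBF1 and, per list, up to 2 genes each way beyond 1.3-fold. Also named were cell type markers, genes overlapping members, VCAN, and LINC01993, which shares its values with MMP2. A planned division of ADAMs by a protein motif was replaced by their textbook roles, as no protein sequences were used here. In the alternatives, differences were centred on the median or on a loess curve (fraction 0.3). Others averaged probe sets, changed the floor (none, 1 log2 unit higher, or on the mean of the arrays) and used 1.3-fold and 2-fold thresholds. The code was tested on simulated data. Software was Python 3.11.15 with pandas 2.3.3, numpy 2.4.6, matplotlib 3.10.9 and statsmodels 0.14.6.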

Additional observations from a re-analysis of the deposited data

How the results depend on the processing

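No paired analysis was possible because each group has 1 array. Averaging probe sets could not change a member's values, as each member has 1 probe set. The median subtraction moves every difference by the same 0.012 log2 units. Under the median and loess subtractions, none of the 36 members above the floor turned sign except ADAMTS13 (-0.011 and -0.010). The 4 equal ones went below 0 under both, and the ADAMTS median turned to -0.012 and -0.0091. After the loess subtraction, TIMP3 and ADAMTS9 were at -0.85 and -0.74, still beyond 1.5-fold lower. With no floor, 22 MMPs and 19 ADAMs counted as above it, and the medians of the convertases and other metzincins turned to 0.00030 and 0.034. After the loess subtraction these were -0.046 and -0.023, and those of the escorts, ADAMTS-like list and transcription factors were -0.015, -0.010 and -0.015 in place of 0. At 1.3-fold, the counts were 1 higher for the MMPs, and lower 1 for the ADAMs, 2 for the ADAMTSs and 2 for the TIMPs, beside 362 higher and 462 lower over all genes. At that threshold, 1 gene was higher in the plasminogen and transcription factor lists, and 1 was lower in each of these, the escorts, the shed proteins and the ADAMTS-like list. At 2-fold, 0 ADAMTSs, 0 TIMPs and 0 inhibitors and surface partners were lower, beside 3 genes higher and 18 lower over all genes. At 1.5-fold, all genes gave 60 higher and 118 lower. Without replicate arrays, the scatter between cultures is unknown.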
